A study of Mus musculus with 11 samples.

Results

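The genes described here are the rows of the deposited expression table that carry the names of 4 G1 cyclins (Ccnd1, Ccnd2, Ccnd3 and Ccne2), 3 S and M cyclins (Ccna2, Ccnb1 and Ccnb2), the mitotic kinase gene Cdk1 and 2 genes for inhibitors of cyclin-dependent kinases (Cdkn1b and Cdkn2c). They are 10 of the 12932 genes in the table. Bulk RNA-seq was done on alveolar macrophages (AMs), the resident macrophages of the air spaces of the lung, sorted from C57BL/6J mice of 9 weeks and of both sexes. All mice carried floxed Rxra and Rxrb, which encode the retinoid X receptors RXRα and RXRβ. Control mature AMs (mAMs, CD11b-/SiglecF+) came from littermates of genotype CD11cCre- Rxrabfl/fl, with 4 libraries. RXR-deficient mAMs (4 libraries, of which 3 entered the tests) and RXR-deficient immature AMs (ImmAMs, CD11b+/SiglecF+, 3 libraries) came from CD11cCre+ Rxrabfl/fl mice. The Cre recombinase was driven by the CD11c (Itgax) promoter, which is active in AMs and also in other CD11c+ cells such as dendritic cells. No ImmAMs of control genotype were sequenced, so against control mAMs the immature state and the loss of RXR cannot be told apart.

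Cyclins are the regulatory subunits of cyclin-dependent kinases (CDKs), and most of them are made and destroyed in each division. D cyclins bind CDK4 and CDK6 in response to growth factors and start the phosphorylation of RB, which releases E2F factors. Cyclin E then works with CDK2 at the start of S phase, cyclin A2 acts in S and G2 phase, and cyclins B1 and B2 with CDK1 drive mitosis. The inhibitor p27 (Cdkn1b) blocks CDK2 complexes, whereas p18 (Cdkn2c) binds CDK4 and CDK6. Resident AMs are known to renew themselves in the lung by division, with GM-CSF as a main growth factor.

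The libraries held 16659960 to 37873532 reads. Values are deposited CPM, which are reads scaled to a common TMM-adjusted library total, and tests are limma contrasts with p-values adjusted over the 12889 genes tested. As whole-gene values the targeted genes overlapped between the control and the RXR-deficient mAMs and were lowest in the ImmAMs, with Rxra at 310 to 380 CPM in the control mAMs, 334 to 419 CPM in all 4 libraries of RXR-deficient mAMs and 283 to 305 CPM in the ImmAMs, and Rxrb at 51.4 to 72.1, 39.3 to 55.3 and 31.9 to 35.2 CPM. A whole-gene value includes exons that Cre leaves in place and is no check of the deletion. Of 10 AM markers, all were in the table. Their summed level was 18910 to 24800 CPM in the control mAMs and 23140 to 24820 CPM in the ImmAMs, with Chil3 at 20270 to 21940 CPM of the ImmAM sum and 13180 to 18300 CPM of the control sum. In the ImmAMs 7 of the 10 lay below all 8 mAM libraries, among them Siglecf (19.3 to 19.7 CPM), Marco (10.95 to 13.85 CPM) and Ear2 (74.2 to 83.5 CPM), whereas Pparg and Cd68 were within the control range and Chil3 was above it. The ImmAMs also carried more RNA of monocyte markers (4 of 6 in the table, summed 208 to 214 CPM against 23.2 to 30.5 CPM in the control mAMs), of interstitial macrophage markers (3 of 6, 85.0 to 98.7 against 0.0603 to 0.244 CPM), of dendritic cell markers (2 of 6, 20.7 to 24.1 against 5.40 to 7.24 CPM) and of neutrophil markers (6 of 6, 903 to 976 against 55.6 to 62.7 CPM). Cx3cr1 (110.2 to 124.3 CPM) and Ccr2 (78.97 to 86.36 CPM) made up most of the monocyte marker sum in ImmAMs. Of the 4 monocyte markers, 3 lay above all 8 mAM libraries. The other, Nr4a1, was lower in ImmAMs (7.12 to 8.17 CPM) than in control mAMs (11.82 to 16.01 CPM). The monocyte markers Ly6c2 and Plac8 were not in the table. Mmp8, which the paper counts among the AM-core genes, made up 851 to 914 CPM of the neutrophil marker sum in ImmAMs. S100a9 was at 1.55 to 3.85 CPM there, and 3 of the 6 neutrophil markers lay above all 8 mAM libraries. Markers of T and NK cells and of endothelial cells and fibroblasts were not among the genes in the table. The defining eosinophil genes Epx, Prg2 and Prg3 were not among them either. The part of these markers in the results on ImmAMs was not tested.

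The cyclins of S and M phase and Cdk1 were 8.42- to 33.0-fold lower in ImmAMs than in control mAMs. Of the 4 G1 cyclins, Ccnd1 was higher and Ccnd2, Ccnd3 and Ccne2 were lower, with Ccnd3 near the threshold (limma adjusted p = 0.0465). Against control mAMs, 8 of the 10 genes were lower in ImmAMs and 1 was higher, beside 25.3% and 22.8% of all genes tested. Against RXR-deficient mAMs, 7 were lower and 1 was higher, beside 20.2% and 17.7% of all genes. Between RXR-deficient and control mAMs, 1 gene, Ccnd1, was called higher and 0 of the 10 lower by limma, beside 2.25% and 2.59% of all genes. At an unadjusted limma p under 0.05, 1 gene was higher and 1, Ccnd2, lower, beside 3042 of all 12889 genes in either direction. The calls were 1 higher and 0 lower in edgeR, beside 289 and 277 of all 12889 genes. They were 1 and 1 in DESeq2, beside 607 and 761 of 12135 genes. In limma-voom they were 0 and 0, beside 240 and 288 of 12889 genes. The median log2 fold change of the 10 genes was -1.995 in ImmAMs against control mAMs and -0.06 in RXR-deficient against control mAMs, with all genes at 0.00 in both. The 3 comparisons share libraries and are not independent of each other. In bulk RNA, fewer dividing cells and less RNA per dividing cell cannot be told apart.

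**Figure D1:**
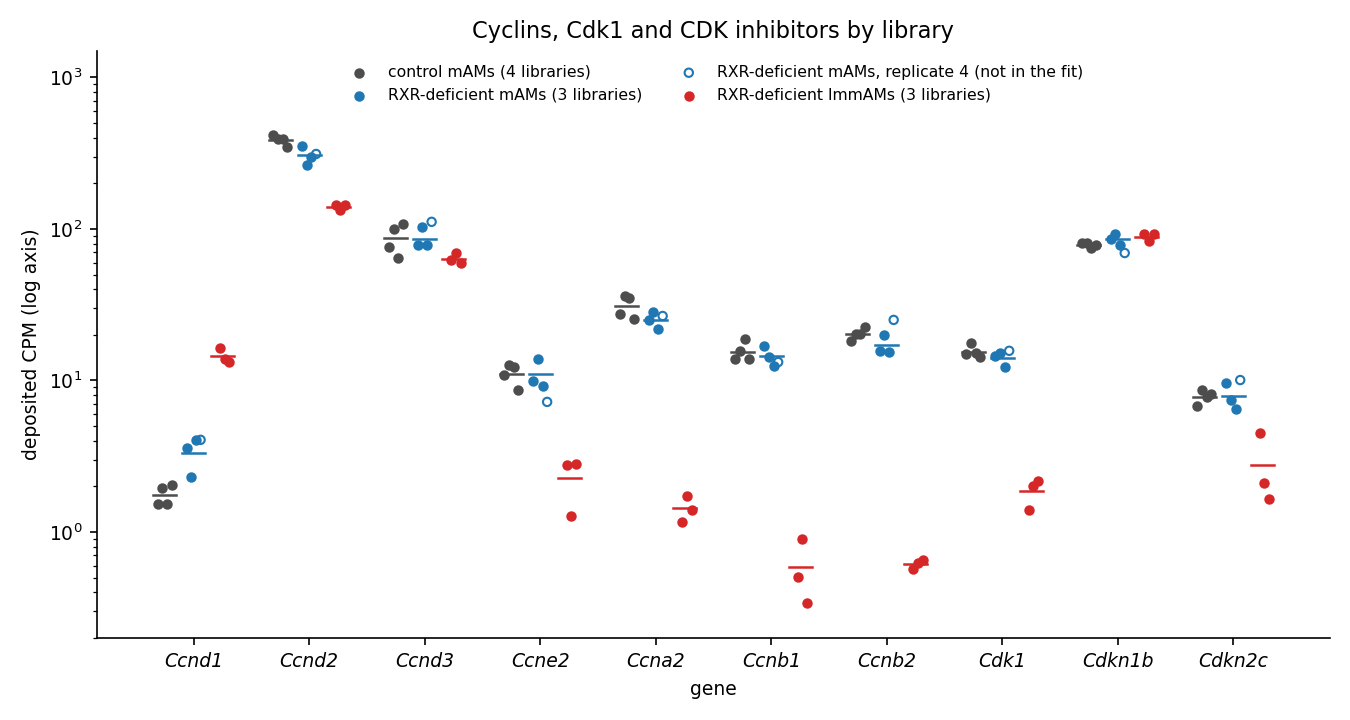
Deposited CPM (log axis) of the 10 genes in every library, with 1 point a library and a bar at the group mean over the libraries used in the tests; the open circle is the RXR-deficient mAM library left out of the main tests. ImmAM points lie below all mAM points for Ccne2, Ccna2, Ccnb1, Ccnb2, Cdk1, Cdkn2c and Ccnd2 and above them for Ccnd1, while the points of Ccnd3 and Cdkn1b lie close together in all groups.

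The S and M cyclins showed the largest differences of the set. Ccna2 (ENSMUSG00000027715, GRCm38 chr3:36564865-36572150, minus strand), whose product serves S and G2 phase, was at 27.3, 35.9, 35.2 and 25.4 CPM in the control mAMs, 24.9, 28.2 and 21.8 CPM in the RXR-deficient mAMs and 1.16, 1.74 and 1.39 CPM in the ImmAMs. Both groups of mAMs overlapped, and the highest ImmAM library was far below the lowest mAM library. Ccna2 fell by 4.44 (SE 0.176, n = 3 and 4 libraries) on the log2 scale in ImmAMs against control mAMs, or 21.7-fold (95% confidence interval 16.6- to 28.2-fold, limma adjusted p = 7.511e-10). It was 17.6-fold lower in ImmAMs than in RXR-deficient mAMs (13.3- to 23.3-fold, adjusted p = 5.943e-09). RXR-deficient against control mAMs gave a log2 fold change of -0.30 (-0.68 to 0.08, adjusted p = 0.320).

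Ccnb2 (ENSMUSG00000032218, GRCm38 chr9:70407692-70421547, minus strand), which encodes the cyclin B that is mostly found at the Golgi apparatus, was at 18.2, 20.4, 20.3 and 22.6 CPM in the control mAMs and at 0.566, 0.626 and 0.656 CPM in the ImmAMs, where 9, 13 and 12 reads stood behind the values. Its RXR-deficient mAM libraries held 15.67, 19.99 and 15.38 CPM, and the library left out held 25.1 CPM. The ImmAM level was 33.0-fold below control mAMs (26.02- to 41.84-fold, limma adjusted p = 1.05e-10) and 27.5-fold below RXR-deficient mAMs (21.3- to 35.4-fold, adjusted p = 5.731e-10). Between the mAM groups the log2 fold change was -0.27 (-0.61 to 0.08, adjusted p = 0.330).

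For Ccnb1 (ENSMUSG00000041431, GRCm38 chr13:100778650-100786570, minus strand), the main mitotic cyclin, control mAMs held 13.8, 15.6, 18.8 and 13.8 CPM, RXR-deficient mAMs 16.8, 14.3 and 12.5 CPM, and ImmAMs 0.507, 0.905 and 0.341 CPM from 8, 19 and 6 reads. No ImmAM library came near the mAM range. The ImmAM level was 28.5-fold below control mAMs (18.7- to 43.3-fold, limma adjusted p = 2.003e-08) and 26.8-fold below RXR-deficient mAMs (17.1- to 41.9-fold, adjusted p = 8.965e-08). RXR-deficient and control mAMs differed by -0.09 on the log2 scale (-0.69 to 0.52, adjusted p = 0.877). The Ccnb1 value is uncertain in all groups, because 37.4% of the 60-base windows of its transcripts also occur in transcripts of Ccnb1-ps, Gm12856, Gm4870, Gm7483 or Gm8416, and RSEM divides reads that match several transcripts by estimated shares.

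Cdk1 (ENSMUSG00000019942, GRCm38 chr10:69335146-69352938, minus strand) encodes the kinase that the B cyclins activate. It was at 14.97, 17.63, 15.11 and 14.27 CPM in the control mAMs, 14.6, 15.2 and 12.2 CPM in the RXR-deficient mAMs and 1.40, 2.02 and 2.18 CPM in the ImmAMs, from 23, 43 and 41 reads. ImmAMs were again apart from all mAM libraries, with a fall of 3.08 (SE 0.176, limma adjusted p = 1.847e-08) on the log2 scale, or 8.42-fold (6.47- to 10.97-fold), against control mAMs and 7.59-fold (5.73- to 10.1-fold, adjusted p = 1.081e-07) against RXR-deficient mAMs. The 95% intervals of the ImmAM fold changes of Cdk1 and of Ccnb2 did not overlap, and that of Ccnb2 was the larger. The mAM groups differed by -0.15 (-0.53 to 0.23, adjusted p = 0.639) for Cdk1. Relative to Mki67, a gene of dividing cells chosen here after its values were seen (143 to 175 CPM in control mAMs, 134 to 160 CPM in RXR-deficient mAMs and 16.6 to 20.8 CPM in ImmAMs), the log2 ratio of Cdk1 was -3.53 to -3.16 in control mAMs and -3.90 to -2.93 in ImmAMs, with overlap. The log2 ratio of Ccnb2 to Mki67 was -3.11 to -2.67 in control mAMs and -5.20 to -4.66 in ImmAMs, with no overlap, and that of Ccna2 was -2.496 to -2.13 against -4.16 to -3.41. These ratios are a description and were not tested.

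Promoter sequences are shown for the 3 genes of the mitotic kinase complex because they fell together in ImmAMs. Promoters of such genes are known for 2 elements, the CCAAT box, which binds NF-Y, and the CHR element TTTGAA, which binds the DREAM and MMB complexes. Both were searched on both strands, with the E2F site spellings TTTCCCGC, TTTGGCGC, TTTCGCGC and TTTGCCGC and the nuclear receptor core motif AGGTCA. Searched letters of CHR, CCAAT (read as ATTGG on the other strand) and E2F are in capitals in these RefSeq windows (GRCm38.p6, 250 bases before to 50 bases after the start site, read 5′ to 3′ on the strand of the gene), which lie at chr10:69352863-69353162 (Cdk1), chr13:100786437-100786736 (Ccnb1) and chr9:70421505-70421804 (Ccnb2), all on the minus strand.
Cdk1: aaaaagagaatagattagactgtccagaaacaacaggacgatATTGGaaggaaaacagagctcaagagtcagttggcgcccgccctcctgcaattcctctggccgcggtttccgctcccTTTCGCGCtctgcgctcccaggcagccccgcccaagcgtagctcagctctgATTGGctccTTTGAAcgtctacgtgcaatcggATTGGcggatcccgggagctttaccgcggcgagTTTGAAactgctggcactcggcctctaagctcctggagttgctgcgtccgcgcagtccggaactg
Ccnb1: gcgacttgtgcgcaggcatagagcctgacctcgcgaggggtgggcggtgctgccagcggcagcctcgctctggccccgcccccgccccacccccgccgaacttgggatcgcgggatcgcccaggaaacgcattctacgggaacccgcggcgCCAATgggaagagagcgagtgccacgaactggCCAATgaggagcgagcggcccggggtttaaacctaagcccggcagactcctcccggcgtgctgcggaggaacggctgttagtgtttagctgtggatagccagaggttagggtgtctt
Ccnb2: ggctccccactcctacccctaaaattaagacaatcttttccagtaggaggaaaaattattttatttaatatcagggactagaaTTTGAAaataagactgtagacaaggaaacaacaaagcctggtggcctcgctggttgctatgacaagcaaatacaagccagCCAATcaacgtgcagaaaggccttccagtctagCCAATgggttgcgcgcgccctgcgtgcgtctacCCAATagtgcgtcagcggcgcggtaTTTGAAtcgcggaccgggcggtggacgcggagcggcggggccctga
CCAAT stood 3 times in the Cdk1 and Ccnb2 windows and 2 times in the Ccnb1 window. In Ccnb2 the copies began 87, 54 and 21 bases upstream of the start site, and in Ccnb1 99 and 67 bases upstream. TTTGAA occurred 2 times in Cdk1, 71 and 15 bases upstream of the start site, and 2 times in Ccnb2, 167 bases upstream and at base 5 of the transcript. The Ccnb1 window held no TTTGAA, and other spellings of the CHR element were not searched. The Cdk1 window also held an E2F spelling, TTTCGCGC, 131 bases upstream. Windows were at hand for 6 of the 10 genes, 8 windows in all, of which 6 held CCAAT, 2 held TTTGAA and 1 held an E2F spelling, whereas of all 32851 promoter windows 37.4%, 17.9% and 2.27% did. The motif AGGTCA stood in 1 window each of Ccnb1, Ccnd3 and Cdkn2c and in 16.3% of all windows. No member window held 2 copies of it in the same direction 1 base apart, an arrangement that 0.0396% of all windows held. These matches describe letters only.

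**Figure D2:**
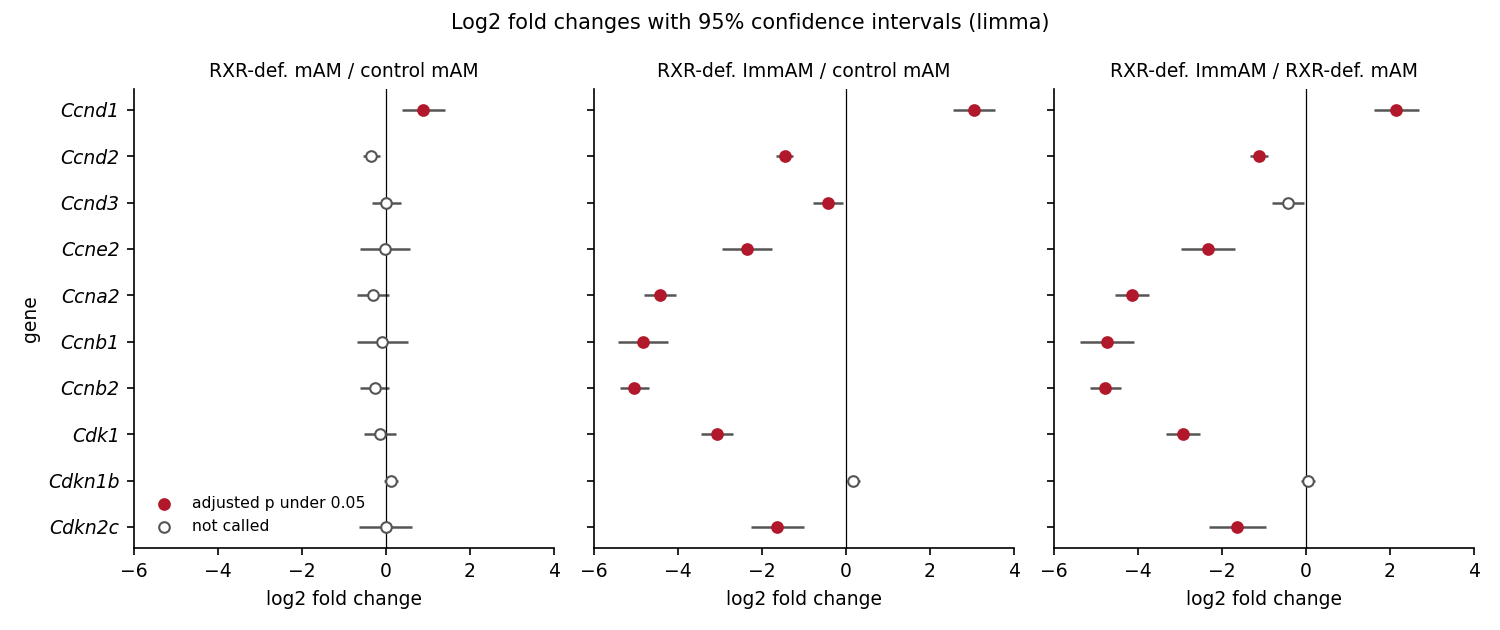
Log2 fold changes (limma) of the 10 genes in the 3 comparisons, with 95% confidence intervals as bars; filled points have an adjusted p under 0.05 and open points do not. Against control mAMs the ImmAM points run from -5.04 (Ccnb2) to 3.05 (Ccnd1), while between RXR-deficient and control mAMs all points lie between -0.35 (Ccnd2) and 0.89 (Ccnd1).

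Among the D cyclins, Ccnd1 (ENSMUSG00000070348, GRCm38 chr7:144929931-144939925, minus strand) was the only member that was higher in ImmAMs. Control mAMs held 1.52, 1.95, 1.52 and 2.04 CPM, RXR-deficient mAMs 3.58, 2.32 and 4.07 CPM, and ImmAMs 16.4, 13.8 and 13.3 CPM. The 3 groups did not overlap at any point. Ccnd1 rose 8.29-fold in ImmAMs against control mAMs (5.81- to 11.8-fold, limma adjusted p = 2.957e-07) and 4.47-fold against RXR-deficient mAMs (3.06- to 6.53-fold, adjusted p = 2.103e-05). Between RXR-deficient and control mAMs it was 1.86-fold higher (1.302- to 2.647-fold, log2 0.89, SE 0.236, adjusted p = 0.04996) and higher in 3 of 3 libraries, from 54 to 77 reads against 40 to 57. That call sits at the threshold. It was lost in 11 of 17 alternative settings and in 9 of 10 fits that left out 1 library, which gave adjusted p-values of 0.00656 to 0.140 and 0.0130 to 0.182, and it held only when RXR-deficient replicate 2 was left out. The RXR-deficient mAM library left out of the main tests held 4.05 CPM, and with it the adjusted p was 0.0321. Of the markers that were higher in ImmAMs, Mmp8 was at 158, 72.3, 303 and 132 CPM in RXR-deficient mAM replicates 1 to 4, against 21.5 to 31.2 CPM in control mAMs. Cx3cr1 was at 4.69, 1.51, 8.34 and 2.31 CPM in them, against 0.583 to 1.10 CPM, and Ccr2 at 10.41, 15.2, 23.2 and 12.9 CPM, against 8.91 to 14.04 CPM. C1qb, at 45.8 to 49.8 CPM in ImmAMs, was at 0.0231, 0.276, 0.139 and 0.160 CPM in replicates 1 to 4, against 0.0201 to 0.123 CPM in control mAMs. C1qa was at 0.0692, 0.191, 0.305 and 0.344 CPM in them, against 0.0132 to 0.0737 CPM. For C1qc the values were 0.0231, 0.276, 0.305 and 0.1145 CPM, against 0.0132 to 0.131 CPM. All these mAM values came from 7 reads at most. The part of these markers in the Ccnd1 difference was not tested.

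Ccnd2 (ENSMUSG00000000184, GRCm38 chr6:127125162-127152193, minus strand) was at 416, 390, 392 and 348 CPM in the control mAMs, 354, 266 and 298 CPM in the RXR-deficient mAMs and 144, 133 and 143 CPM in the ImmAMs. ImmAMs lay below all mAM libraries, while RXR-deficient replicate 1 was within the control range. The ImmAM level was 2.75-fold below control mAMs (2.40- to 3.16-fold, limma adjusted p = 4.308e-08) and 2.17-fold below RXR-deficient mAMs (1.87- to 2.51-fold, adjusted p = 1.743e-06). Between the mAM groups Ccnd2 gave a log2 fold change of -0.35 (-0.55 to -0.15) with an adjusted p of 0.0511, and it was called in 5 of 17 alternative settings.

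Ccnd3 (ENSMUSG00000034165, GRCm38 chr17:47505051-47599691, plus strand), the D cyclin with the highest coefficient of variation in control mAMs (23.4%, against 7.35% for Ccnd2 and 15.7% for Ccnd1), was at 76.2, 100.6, 64.1 and 107 CPM there. RXR-deficient mAMs held 77.9, 103 and 78.2 CPM and ImmAMs 62.4, 69.2 and 59.5 CPM. ImmAMs overlapped the control mAMs but lay below all RXR-deficient mAMs. Against control mAMs Ccnd3 was called lower, by 1.34-fold (1.05- to 1.71-fold, limma adjusted p = 0.0465), a call lost in 8 of 16 alternative settings and in 7 of 10 fits without 1 library (adjusted p = 0.00613 to 0.139). Against RXR-deficient mAMs the log2 fold change was -0.43 (-0.80 to -0.05, adjusted p = 0.0688), and it was called in 4 of 16 alternative settings. RXR-deficient and control mAMs differed by 0.01 (-0.34 to 0.36, adjusted p = 0.987). Of the 60-base windows of Ccnd3, 2.79% also occur in Ccnd3-ps.

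The fourth G1 cyclin, Ccne2 (ENSMUSG00000028212, GRCm38 chr4:11191351-11204779, plus strand), which encodes a partner of CDK2, was at 10.8, 12.7, 12.2 and 8.67 CPM in the control mAMs, 9.90, 13.9 and 9.17 CPM in the RXR-deficient mAMs and 2.77, 1.28 and 2.81 CPM in the ImmAMs. ImmAMs lay below all mAM libraries, and the mAM groups overlapped. The ImmAM level was 5.10-fold below control mAMs (3.39- to 7.69-fold, limma adjusted p = 1.3e-05) and 5.02-fold below RXR-deficient mAMs (3.24- to 7.79-fold, adjusted p = 3.817e-05). Between the mAM groups the log2 fold change was -0.02 (-0.62 to 0.57, adjusted p = 0.968).

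The inhibitors differed from each other. Cdkn1b (ENSMUSG00000003031, GRCm38 chr6:134920401-134925513, plus strand), the gene of p27, was at 81.2, 80.2, 74.3 and 78.7 CPM in the control mAMs, 86.2, 93.0 and 78.7 CPM in the RXR-deficient mAMs and 92.3, 82.7 and 92.2 CPM in the ImmAMs. Each ImmAM library was above each control mAM library by a small margin. The log2 fold change was 0.18 (0.02 to 0.34) against control mAMs with a limma adjusted p of 0.0674, called in 4 of 16 alternative settings, and 0.05 (-0.12 to 0.23, adjusted p = 0.645) against RXR-deficient mAMs. RXR-deficient and control mAMs differed by 0.13 (-0.04 to 0.29, adjusted p = 0.333). Cdkn2c (ENSMUSG00000028551, GRCm38 chr4:109660876-109667189, minus strand), the gene of p18, was at 6.80, 8.67, 7.75 and 8.08 CPM in the control mAMs and 9.67, 7.46 and 6.46 CPM in the RXR-deficient mAMs. In ImmAMs it was at 4.50, 2.11 and 1.65 CPM, so that replicate 2 stood above the other libraries of its group but below all mAMs. Cdkn2c was 3.11-fold lower in ImmAMs than in control mAMs (2.01- to 4.82-fold, limma adjusted p = 0.000472) and 3.09-fold lower than in RXR-deficient mAMs (1.94- to 4.94-fold, adjusted p = 0.00113), and the mAM groups differed by -0.01 (-0.64 to 0.62, adjusted p = 0.989).

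To compare levels between genes, CPM was divided by the length in kilobases of the longest annotated coding transcript, which is a rough scale because the transcripts in use were not analysed here. On this scale of level per length, Ccnd2 ranked highest in control mAMs (61.0 ± 4.49 CPM per kb, SD, n = 4), followed by Ccnd3 (41.2 ± 9.65), Cdkn1b (17.3 ± 0.668), Ccnb2 (13.3 ± 1.15), Ccna2 (10.4 ± 1.81), Ccnb1 (6.22 ± 0.959), Ccne2 (3.69 ± 0.596), Cdk1 (3.54 ± 0.337), Cdkn2c (3.17 ± 0.315) and Ccnd1 (0.470 ± 0.0739). Neighbours overlapped in this order between Ccnb2 and Ccna2 and from Ccne2 to Cdkn2c. The RXR-deficient mAMs kept the same order of mean levels, with Ccnd2 (48.3 ± 7.04 CPM per kb, SD, n = 3) and Ccnd3 (40.8 ± 6.80) overlapping. In ImmAMs Ccnd3 (30.2 ± 2.37 CPM per kb, SD, n = 3) ranked above Ccnd2 (22.1 ± 0.929) and Cdkn1b (19.6 ± 1.21), each without overlap. Ccnd1 stood in the fourth place there (3.88 ± 0.452), and the 3 lowest genes were Cdk1 (0.427 ± 0.0939), Ccnb2 (0.403 ± 0.0300) and Ccnb1 (0.235 ± 0.116).

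Set against each other within a library, the D cyclins and the S and M cyclins with Cdk1 came apart in ImmAMs. The G1 cyclin Ccne2, 5.10-fold lower in ImmAMs than in control mAMs, was left out of the sums given here. The summed level of Ccna2, Ccnb1, Ccnb2 and Cdk1 was 30.1 to 36.1 CPM per kb in the control mAMs, 25.2 to 31.8 in the RXR-deficient mAMs and 1.29 to 1.82 in the ImmAMs. The summed level of the D cyclins was 92.6 to 109.7, 85.1 to 93.7 and 54.3 to 57.5 CPM per kb. The ratio of the former sum to the latter was 0.294 to 0.390 in control mAMs, 0.296 to 0.348 in RXR-deficient mAMs and 0.0227 to 0.0316 in ImmAMs. Ccnd1 made up 0.398% to 0.513% of the D cyclin sum in control mAMs, 0.679% to 1.28% in RXR-deficient mAMs and 6.41% to 7.75% in ImmAMs. The share of Ccnd2 was 51.7% to 66.8%, 46.0% to 59.6% and 36.6% to 41.6%, and that of Ccnd3 was 32.7% to 47.8%, 39.3% to 53.4% and 51.8% to 57.0%. The mAM groups overlapped in the shares of Ccnd2 and Ccnd3 and in the ratio, and ImmAMs overlapped RXR-deficient mAMs in the share of Ccnd3. These sums are a description and were not tested.

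**Figure D3:**
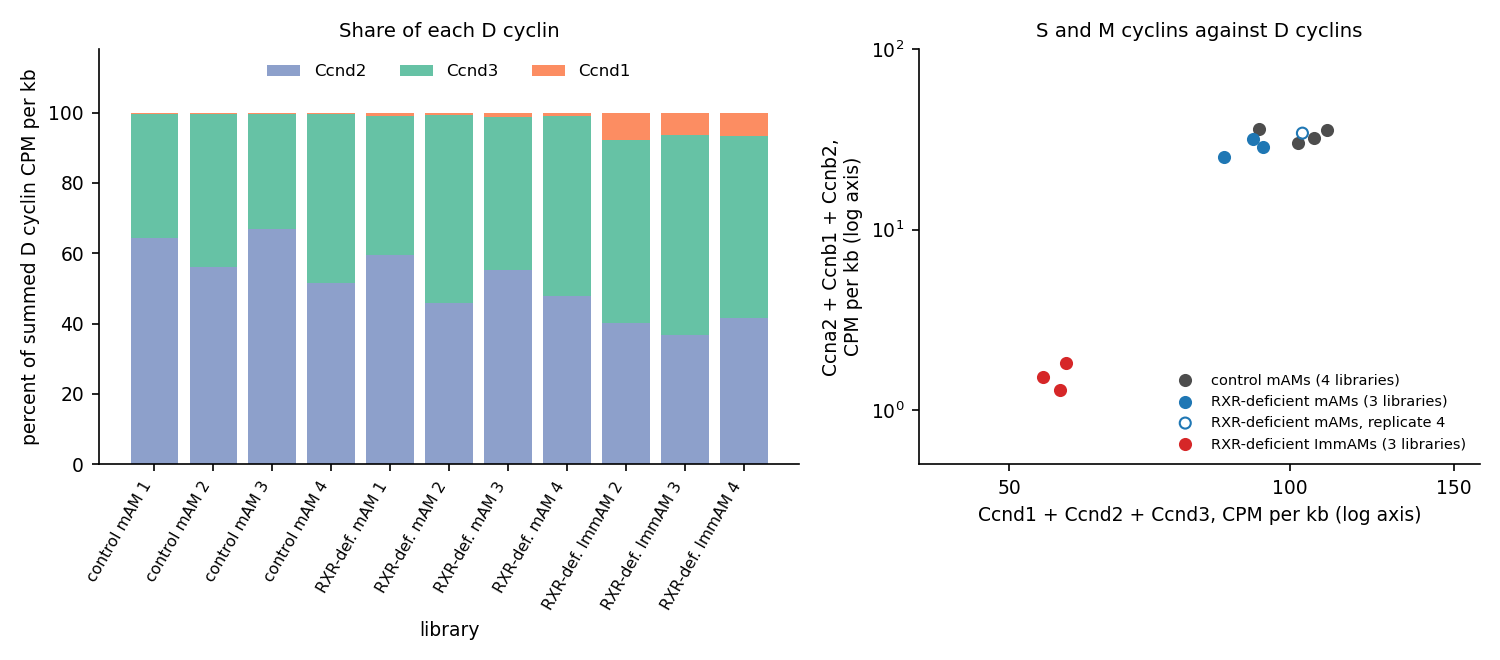
Left, percent of the summed D cyclin level (CPM per kb) taken by each D cyclin in every library, as stacked bars. Right, summed level of Ccna2, Ccnb1, Ccnb2 and Cdk1 against summed level of the D cyclins (CPM per kb, both axes log), with 1 point a library. The axis label leaves out Cdk1, which is part of the plotted sum. The Ccnd1 share reaches 6.41% to 7.75% in ImmAMs against 1.28% at most in the mAM libraries used in the tests. The ImmAM points lie apart at 1.29 to 1.82 CPM per kb of S and M cyclins with Cdk1.

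The wider cell cycle machinery was taken from 11 lists of 105 genes, of which 102 were tested (Ccna1, Ccnb3 and Ccnjl were not in the table). In ImmAMs against control mAMs, 49 were lower and 13 were higher, beside 25.3% and 22.8% of all genes, so that the higher calls were below the share over all genes. The median log2 fold change of the 102 genes was -0.22, against 0.00 for all genes. All 13 proliferation markers were lower, with Rrm2, a subunit of ribonucleotide reductase, at 1.71 ± 0.426 CPM (SD, n = 3) against 36.1 ± 3.67 CPM (n = 4), Top2a, topoisomerase IIα, at 5.08 ± 2.14 against 90.7 ± 13.2 CPM, and the spindle checkpoint kinase gene Bub1 at 0.828 ± 0.295 against 13.98 ± 1.78 CPM. All 9 genes that switch CDK1 and CDK2 on or off were lower too. These included both the activating phosphatase gene Cdc25c (0, 0 and 7 reads in ImmAMs against 38 to 81 in control mAMs) and the inhibitory kinase gene Pkmyt1 (-3.05, SE 0.208). Mastl, whose kinase restrains the phosphatase that opposes CDK1, was at 1.018 ± 0.664 CPM in ImmAMs and 7.10 ± 2.10 CPM in control mAMs.

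Other lists were mixed. Of the 17 genes of the anaphase promoting complex and its partners, which mark cyclins A and B for destruction, 9 were lower, with the mitotic activator Cdc20 (log2 fold change -3.91, SE 0.237) and the ubiquitin carrier Ube2c (-4.52, SE 0.332) far ahead of the rest. In the list of DREAM and MMB-FOXM1 factors 3 of 7 were lower. Foxm1, a factor for G2 and M genes, was at 1.52 ± 0.253 CPM in ImmAMs against 17.3 ± 3.06 CPM in control mAMs, and Mybl2 at 1.35 ± 0.270 against 6.88 ± 1.76 CPM. The RB and E2F family had 6 of 13 lower and 2 higher, with the repressor genes E2f7 (log2 fold change -3.50, SE 0.372) and E2f8 (-3.62, SE 0.353) changed most. Among the other cell cycle kinases, Cdk6, a partner of the D cyclins, was lower (89.3 ± 8.16 CPM in ImmAMs, 2.24-fold below control mAMs, limma adjusted p = 1.932e-07), as was Cdk2, the partner of cyclins E and A (27.1 ± 1.39 against 46.8 ± 3.36 CPM, adjusted p = 7.008e-06), and 3 of the 5 genes were not called. Of the 4 other cell cycle cyclins tested, Ccne1 (log2 fold change -3.56, SE 0.483) and Ccnf (-2.78, SE 0.224) were lower and Ccng2 (0.32, SE 0.0914) was higher. Cyclins of transcription and other kinases mostly were not called, with 2 of 10 lower and 1, Ccny, higher (252 ± 9.67 against 140 ± 13.6 CPM). Of the 9 genes of the SCF and other ligases, which destroy p27 and G1 cyclins, 0 were called by limma, edgeR, DESeq2 and limma-voom. An unadjusted limma p under 0.05 was seen for 0 of the 9, beside 7022 of all 12889 genes.

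The inhibitors outside the set moved the other way in ImmAMs, with 4 of 5 higher and 0 lower, also at an unadjusted p under 0.05 and in edgeR, DESeq2 and limma-voom. Cdkn1a, the gene of p21, was at 162 ± 6.93 CPM in ImmAMs and 91.3 ± 6.79 CPM in control mAMs (limma adjusted p = 5.978e-06), and Cdkn2d, the gene of p19INK4d, was at 14.1 ± 1.17 against 7.28 ± 0.790 CPM (adjusted p = 0.000107). Cdkn1c, the gene of p57, was at 1.87 ± 0.292 against 0.142 ± 0.0480 CPM (adjusted p = 0.00117), from 1 to 5 reads in control mAMs. Of the inputs to D cyclins and p27, 5 of 10 were higher and 3 lower. Csf1r, the receptor gene for M-CSF, was at 1056 ± 46.3 against 420 ± 34.8 CPM, whereas Stat5a, which acts downstream of the GM-CSF receptor, was at 37.3 ± 3.04 against 82.9 ± 7.64 CPM (adjusted p = 1.73e-06), and Myc had a log2 fold change of -0.77 (SE 0.194, adjusted p = 0.00519). The forkhead gene Foxo1, whose product is known to activate Cdkn1b, was at 38.0 ± 2.76 against 25.6 ± 1.29 CPM (adjusted p = 0.000155).

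Against RXR-deficient mAMs, ImmAMs had 47 of the 102 genes lower and 10 higher, beside 20.2% and 17.7% of all genes. All 13 proliferation markers and 8 of the 9 CDK1 and CDK2 switches were lower, and 4 of 5 other CDK inhibitors were higher. Of these inhibitors, Cdkn2a was near the threshold (limma adjusted p = 0.0451), and edgeR called 3 of the 5 higher. Foxm1 (1.52 ± 0.253 against 14.5 ± 1.46 CPM) and Ube2c (0.536 ± 0.266 CPM, 22.6-fold below) were both lower. Cdk4 was higher (61.9 ± 5.57 against 50.6 ± 4.89 CPM, limma adjusted p = 0.0328), with a log2 fold change of 0.13 (-0.07 to 0.33) against control mAMs. These values share the ImmAM libraries with the comparison above.

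In RXR-deficient against control mAMs, 3 of the 102 genes were called, 2 higher and 1 lower, beside 2.25% and 2.59% of all genes. Of the 13 proliferation markers, 0 were called by limma, edgeR and limma-voom, and 1 was called lower by DESeq2. In limma 1 had an unadjusted p under 0.05, beside 3042 of all 12889 genes. The log2 fold changes of these markers ran from -0.46 (Aurka) to -0.094 (Mki67). Their median was -0.24, against 0.00 for all genes, and was not tested. The largest difference of the 3 called genes was that of Cdkn2a, the gene of p16 and p19ARF. Cdkn2a was at 0.410, 0.744, 0.769 and 0.663 CPM in the control mAMs, from 13 to 20 reads, and 6.02, 2.32 and 2.85 CPM in the RXR-deficient mAMs. No library overlapped, and the library left out held 11.4 CPM, above the 6.80 to 7.38 CPM of the ImmAMs. The fold change was 5.44 (log2 2.44, SE 0.358, limma adjusted p = 0.00395). Rbl2, the gene of the RB relative p130, was at 66.03, 71.0, 67.4 and 60.1 CPM in the control mAMs and 85.2, 79.9 and 86.5 CPM in the RXR-deficient mAMs (log2 0.34, SE 0.0721, adjusted p = 0.0212). Stat5a was lower, at 52.7, 68.7 and 53.4 CPM against 84.0, 76.8, 77.6 and 93.3 CPM (log2 -0.51, SE 0.108, adjusted p = 0.0214). The calls of Rbl2 and Stat5a were lost without RXR-deficient replicate 1 (adjusted p = 0.0802 and 0.0919) and without replicate 3 (0.0897 and 0.0965), and that of Cdkn2a held in every alternative setting and fit without 1 library that was run.

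**Figure D4:**
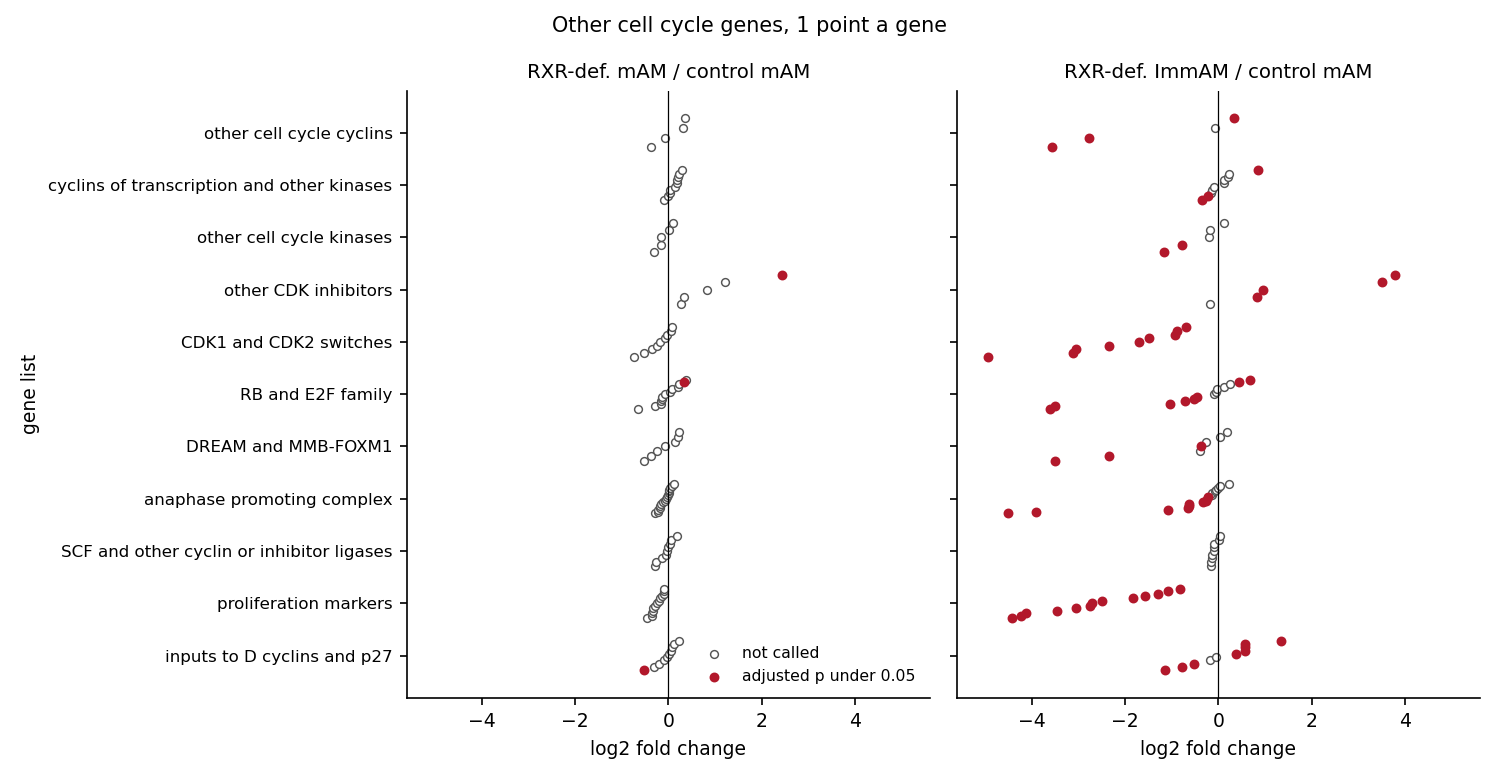
Log2 fold changes of 102 other cell cycle genes by list, with 1 point a gene, for RXR-deficient against control mAMs (left) and ImmAMs against control mAMs (right); filled points have an adjusted p under 0.05. On the left 3 genes are called, and on the right 49 lie to the left of 0 and 13 to the right, with all 13 proliferation markers lower and 4 of 5 other CDK inhibitors higher.

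The genes whose log2 CPM was most like that of Cdk1 over the 10 libraries were Cdon (Pearson r = 0.998), Klhl3 (0.998), Anln (0.998), Kif23 (0.997) and Aifm1 (0.997), of which Anln and Kif23 encode cytokinesis proteins. For Ccnd1 they were Camk2n1 (0.992), Ptafr (0.992), Nfe2 (0.992), Trem2 (0.991) and Smad7 (0.991). For Ccnd2 they were Fars2 (0.996), Ano10 (0.989), Ogdh (0.987), Plekha6 (0.986) and Zgrf1 (0.986). These correlations are a description over libraries that share the split between mAMs and ImmAMs. With the library left out added, 3, 2 and 2 of the 5 genes were among the top 5 again.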

How the data were processed

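The members and the gene lists were chosen with earlier results of these data known. Per the submitters' processing notes and the study's methods, reads (60-base, single-end, directional kit, 40000 sorted cells per library) were trimmed with Cutadapt and assigned with RSEM 1.3.1 to the GRCm38 release 99 transcriptome, and the authors deposited 1 table of CPM on TMM-scaled library sizes. Every deposited CPM value equalled a whole number of reads plus 0.5, multiplied by a fixed step of its library (100% of values within 0.01 reads). These recovered whole reads, 16659960 to 37873532 per library, served for depth and for the count tests, in which edgeR called 566 genes between the mAM groups, 6094 between ImmAMs and control mAMs and 4804 between ImmAMs and RXR-deficient mAMs. Rows without a gene symbol were 15 and held 0.100% to 0.233% of reads.

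A gene had to reach 1 CPM in 3 or more libraries of the 10 to be tested, which left 12889 of 12932. Tests were run with limma 3.58.1 in R 4.3.3 on log2 CPM, with no pseudocount, 3 group means, a variance trend, two-sided p-values and Benjamini-Hochberg adjustment over all genes tested, at a threshold of 0.05. Control mAMs had 4 libraries and the RXR-deficient groups 3 each. RXR-deficient mAM replicate 4 was left out, as in the study, and entered as an alternative. Libraries of a group were separate biological replicates per the design text, and no label says whether libraries with the same number in different groups share a mouse. The fits were checked on simulated data. Alternatives included edgeR 4.0.16, DESeq2 1.42.0, limma-voom, other scalings, filters and pseudocounts, Xist as a covariate, a replicate block and leaving out each library. Named genes were all members, in the lists every gene called between the mAM groups and at most the 4 largest called changes per list in the other comparisons, and the 5 genes most correlated with Cdk1, Ccnd1 and Ccnd2. Gene positions and transcript lengths came from GENCODE vM21 and promoter windows from RefSeq.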

Additional observations from a re-analysis of the deposited data

Results flagged for a closer look

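RXR-deficient mAM replicate 4 was left out of the main tests and entered alternatives only. In it 4 of the 10 genes lay above all 4 control mAM libraries, Ccnd1 at 4.05 CPM (control mAMs 1.52 to 2.04), Ccnd3 at 111.4 CPM (64.1 to 107), Ccnb2 at 25.1 CPM (18.2 to 22.6) and Cdkn2c at 10.1 CPM (6.80 to 8.67). Ccnd1 was within the range of the other RXR-deficient mAM libraries, and the other 3 genes were above it. As many of the 10 lay below all 4 control libraries, Ccnd2 at 312 CPM (348 to 416), Ccne2 at 7.22 CPM (8.67 to 12.65), Ccnb1 at 13.2 CPM (13.75 to 18.8) and Cdkn1b at 69.3 CPM (74.3 to 81.2). These are values of 1 library, with no test. How many of all genes lay above or below the control libraries in it was not counted. These counts are therefore no result about the 10 genes in particular.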

How the results depend on the processing

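In ImmAMs, the counts of called members (9 against control mAMs and 8 against RXR-deficient mAMs) and of called genes in the wider lists (62 and 57) were within 1.5 times under every alternative run. Between the mAM groups they were not. The count of members, 1, was 0 with only the groups compared, no filter, no TMM factor, quantile scaling, no trend, limma-voom, the replicate block and, chosen after seeing the data, the groups compared with RXR-deficient mAM replicate 4, was 2 with DESeq2 and with Xist as a covariate, and ran from 0 to 1 without 1 library (0 without control replicates 1, 2 or 3, RXR-deficient replicate 3 or any ImmAM library). The wider count, 3, was 1 with only the groups compared, with those and replicate 4, with no trend, with the replicate block and at a fold of 1.5 or more, 9 with DESeq2 and 5 with Xist, and ran from 1 to 4 without 1 library, with 1 without RXR-deficient replicate 1 or 3. Of all genes, 624 were called there, 337 with all 11 libraries, 199 with only the groups compared, 166 with those and replicate 4, 122 with no trend, 174 with the replicate block, 1368 with DESeq2, and 162 (without RXR-deficient replicate 3) to 861 (without control replicate 1). Correlations of same-numbered deviations between groups were -0.13 to 0.059. Only RXR-deficient mAMs and ImmAMs could share a mouse, and theirs were 0.059 (replicate 2) and -0.033 (replicate 3). Values from so few libraries cannot decide whether same-numbered libraries share a mouse, so the block result describes a shared number only. Signs of uncalled log2 fold changes turned between the mAM groups for Cdkn2c (-0.0083; 0.086 with all 11 libraries and with the groups compared and replicate 4, 0.031 limma-voom, 0.011 edgeR, 0.0099 DESeq2, and 0.043, 0.0089, 0.020 and 0.12 without control replicates 2 and 4 and RXR-deficient replicates 2 and 3), Ccnd3 (0.0057; -0.0078 edgeR, -0.0090 DESeq2, -0.020 Xist, and -0.048, -0.13 and -0.13 without control replicates 1 and 3 and RXR-deficient replicate 2), Ccne2 (-0.023; 0.046, 0.029, 0.040 and 0.095 without control replicates 2 and 3 and RXR-deficient replicates 1 and 3) and Ccnb1 (-0.089; 0.0087 and 0.015 without control replicate 3 and RXR-deficient replicate 3), and between ImmAMs and RXR-deficient mAMs for Cdkn1b (0.053; -0.0088 without RXR-deficient replicate 3). Without 1 library these values otherwise reached at most -0.17 (Cdkn2c) and -0.20 (Ccnb1) without RXR-deficient replicate 1, and -0.20 (Ccne2) and 0.11 (Cdkn1b) without RXR-deficient replicate 2. The cause was not tested. Depth limited, among others, Ccnb1 and Ccnb2 (6 to 19 reads) and Cdc25c (0 to 7 reads) in ImmAMs, and Ccnd1, Cdkn2a and Cdkn1c (1 to 5 reads) in control mAMs.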
